A study of Mus musculus with 41 samples.

Results

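The 45 genes described here, a mitosis and G2/M module, encode proteins that carry a cell from the end of DNA replication through chromosome segregation and cytokinesis. They were taken by gene symbol from a table of raw RNA-seq counts per gene, in which they are 45 of 19434 genes, and their levels were followed across 8 groups of sorted mouse T cells (41 libraries). No measured value entered that choice of rows, but the list was drawn up with earlier results of these data known.

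The study concerned regulatory T cells (Treg cells), CD4 T cells that restrain immune responses and depend on the transcription factor Foxp3, and Uhrf1, which brings the maintenance DNA methyltransferase to newly replicated DNA. In the chimera experiment, CD25-high Foxp3-YFP+ Treg cells came from 8-week-old females. Controls were Uhrf1+/+Foxp3YFP-Cre/YFP-Cre (n = 4), and chimeric knockouts were Uhrf1fl/flFoxp3+/YFP-Cre (n = 4). Cre is driven by Foxp3 in both genotypes. In the heterozygous knockouts it sits on 1 of the X chromosomes, so these mice also keep Treg cells that do not express it, and the sort took the YFP+ cells. In the pulse-chase experiment all mice carried Foxp3GFP-CreERT2 and a Rosa26SorCAG-tdTomato reporter, so that tamoxifen switched on Cre in Foxp3-expressing cells and marked them with tdTomato. The mice (8 weeks) were given chow with tamoxifen for 2 weeks, followed by 4 weeks on standard chow. Controls had intact Uhrf1 (iUhrf1+/+, n = 5 libraries per population), and iUhrf1fl/fl mice had floxed Uhrf1 (here fl/fl, n = 6 per population). From both genotypes, 3 populations were sorted. Labeled Treg cells carried tdTomato and Foxp3-GFP. Ex-Foxp3 cells carried tdTomato and had lost the Foxp3 reporter (GFP- tdTomato+), and post-tamoxifen Treg cells (GFP+ tdTomato-) carry no tdTomato mark of Cre activity in either genotype.

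In dividing cells, cyclin B bound to Cdk1 drives entry into mitosis, condensin and topoisomerase II compact and untangle the chromosomes, and kinetochores and motor proteins move them on the spindle. The spindle checkpoint holds the anaphase-promoting complex until every chromosome is attached, and that complex then marks cyclin B for destruction. Transcripts of these proteins are low in resting cells and rise together in late S phase and G2, in part through promoter elements called the CHR and the CCAAT box. In Treg cells they are read as a measure of proliferation, which activated Treg cells undergo readily.

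The members' promoters were read for the CHR and the CCAAT box, the elements named above for genes of this class. The motifs are the same in every library and do not bear on differences between libraries. For 40 of the 45 members a promoter window from 250 bases before to 50 bases after the transcription start was at hand (RefSeq, GRCm38.p6). The CHR was searched as TTTGAA or its variant TTCGAA, and the CCAAT box by the letters CCAAT. Both strands were read: in the opposite direction the first appears as TTCAAA, the variant is unchanged, and the box appears as ATTGG. Matches do not overlap in the stretches printed below. Elsewhere some do: a CHR and a CCAAT box share a base in Cdca8, and neighbouring CCAAT boxes overlap further upstream in Ube2c. A CHR was found in 34 of the 40 windows (85.0%) against 21.7% of the windows of 27025 genes, and a CCAAT box in 32 (80.0%) against 41.1%. Both motifs stood in 30 members (75.0%) against 8.61% of all genes, and a CHR that began no more than 50 bases before the start stood in 30 (75.0%) against 6.12%. Among 77 other mitosis genes with a window, both motifs stood in 36.4%. The windows of Ccnb1, Birc5, Cenpe, Nusap1, Nuf2 and Tacc3 held no CHR, and those of Birc5, Nusap1, Nuf2 and Tacc3 held neither motif. A match is a string of letters and does not show that a factor binds there.

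The stretches from 120 bases before to 20 bases after the start are given for 6 members that each stand for a role in the comparisons: Cdk1 and its cyclin Ccnb2, Top2a, the checkpoint kinase Ttk, and Ube2c and Cdc20, which act with the anaphase-promoting complex. All 6 hold both motifs, so they do not show the members that lack one. Capitals mark the CHR (6 letters) and the CCAAT box (5 letters), in the direction of transcription.
Cdk1: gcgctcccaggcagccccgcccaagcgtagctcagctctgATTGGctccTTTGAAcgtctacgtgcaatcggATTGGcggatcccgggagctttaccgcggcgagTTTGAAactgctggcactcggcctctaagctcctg
Ccnb2: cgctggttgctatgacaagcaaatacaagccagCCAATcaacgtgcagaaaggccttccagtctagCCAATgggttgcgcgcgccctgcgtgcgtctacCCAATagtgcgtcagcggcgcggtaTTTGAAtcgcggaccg
Top2a: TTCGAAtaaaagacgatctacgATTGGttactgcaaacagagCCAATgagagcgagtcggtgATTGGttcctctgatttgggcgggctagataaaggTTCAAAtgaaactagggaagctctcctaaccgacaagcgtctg
Ttk: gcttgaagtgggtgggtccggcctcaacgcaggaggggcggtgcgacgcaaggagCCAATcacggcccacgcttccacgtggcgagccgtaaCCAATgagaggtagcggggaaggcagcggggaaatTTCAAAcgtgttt
Ube2c: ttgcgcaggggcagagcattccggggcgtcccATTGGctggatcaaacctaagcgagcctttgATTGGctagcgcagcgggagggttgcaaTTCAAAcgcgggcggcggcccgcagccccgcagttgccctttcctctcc
Cdc20: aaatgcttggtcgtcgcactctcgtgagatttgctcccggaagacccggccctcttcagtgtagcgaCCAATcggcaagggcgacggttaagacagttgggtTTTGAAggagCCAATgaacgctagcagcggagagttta
They lie at chr10:69352893-69353032 (minus strand, Cdk1), chr9:70421535-70421674 (minus, Ccnb2), chr11:99024170-99024309 (minus, Top2a), chr9:83834569-83834708 (plus, Ttk), chr2:164769809-164769948 (plus, Ube2c) and chr4:118437324-118437463 (minus, Cdc20), and each ends within the first transcribed bases of its gene. Counting the start as position 1, the CHR nearest to it began at position -15 in Cdk1, 5 in Ccnb2, -23 in Top2a, 8 in Ttk, -29 in Ube2c and -18 in Cdc20. All 6 also held at least 2 CCAAT boxes within the bases shown, the first at position -80 in Cdk1, -87 in Ccnb2, -98 in Top2a, -65 in Ttk, -88 in Ube2c and -53 in Cdc20.

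The libraries held 781437 to 5709702 counts, of which the 45 members took 822 to 22029. A count of 0 allows a level of up to 0.525 to 3.84 CPM (counts of a gene scaled to a fixed library size), depending on the library, and covers counting error only. In 17 libraries at least 1 member had no count, and at most 12 members did. Levels are given as CPM of the library scaled by its TMM factor, separately for the chimera and pulse-chase experiments, so the experiments are not compared in level. The targeted gene Uhrf1 had 22.2 to 32.4 CPM in chimera controls and 11.9, 8.65, 9.24 and 22.3 CPM in chimeric knockouts, where library 4 lay at the control level (log2 fold change -0.95 ± 0.25 (SE), edgeR adjusted p = 0.0378). In labeled cells Uhrf1 was at 11.3 to 104 CPM in controls and 10.4 to 88.3 CPM in fl/fl mice (-0.15 ± 0.60, edgeR adjusted p = 0.961), and in post-tamoxifen cells at 13.7 to 59.4 and 18.9 to 155 CPM (1.62 ± 0.64, edgeR adjusted p = 0.113), so its level does not check the genotype there. Foxp3 was at 317 to 507 CPM in labeled cells, and at 79.3 to 151 CPM in ex-Foxp3 controls and 13.3 to 113 CPM in ex-Foxp3 fl/fl cells. In post-tamoxifen cells, sorted as Foxp3-GFP+, it was at 286 to 536 CPM except in control library 2 (122.5 CPM) and fl/fl library 3 (127 CPM), which lay in the range of ex-Foxp3 controls. The post-tamoxifen fl/fl library 3 also had the highest summed level of the members, and results are given without each of these libraries. Of the Treg markers, all 7 searched had counts in every group. Some libraries stood apart in markers of other cells. B and plasma cell markers summed to 124 and 126 CPM in chimera controls 3 and 4 (13.9 and 14.5 in controls 1 and 2), 129 in post-tamoxifen control 1, and 646, 212 and 250 CPM in post-tamoxifen fl/fl libraries 1 to 3. The calls that rest on these libraries are given with and without them. Reads in the stretches where 12 members overlap a gene on the opposite strand, among them Cdc20, Ube2c, Tacc3, Nusap1, Kif4 and Ccna2, cannot be assigned to either gene with certainty.

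The members varied far more between libraries of 1 group than most genes. Summed over the 45 members, labeled control libraries 1 to 5 held 2072, 2953, 3429, 720.0 and 774 CPM, and labeled fl/fl libraries 1 to 6 held 6783, 4411, 5364, 777, 909.6 and 966 CPM. The first 3 libraries of each were high and the others low, whatever the genotype. In ex-Foxp3 cells the sums were 675, 1517, 1556, 676 and 720.0 CPM in controls and 1664, 1376, 2085, 845, 836 and 901 CPM in fl/fl mice. In post-tamoxifen cells they were 2746, 1017, 1321, 591 and 574 CPM in controls and 7475, 5741, 9523, 888, 1229 and 1253 CPM in fl/fl mice, which include the highest sum of the experiment. Ranges of the genotypes overlapped in each of the 3 populations. In the chimera experiment controls held 625, 631, 1222 and 1074 CPM and chimeric knockouts 662, 663, 465 and 735 CPM, where 2 controls stood above all other libraries and the other 2 among the knockouts.

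**Figure D1:**
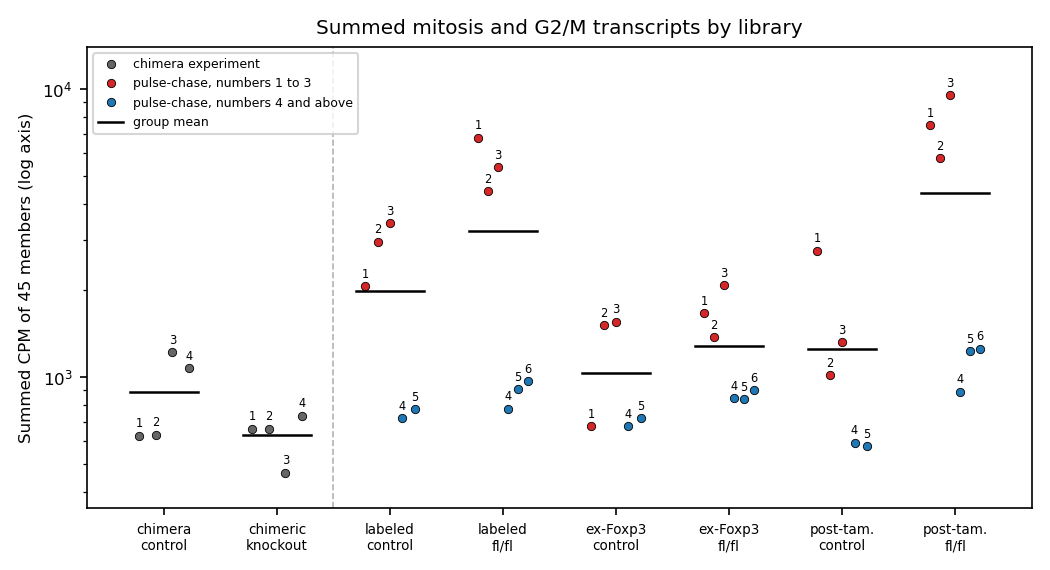
Summed CPM of the 45 members (log axis) for each of the 41 libraries, by group, with the replicate number above each point, a line for each group mean and a dashed line between the 2 experiments. Post-tamoxifen fl/fl libraries 1 to 3 lie between 5741 and 9523 CPM, and libraries numbered 4 and above lie between 574 and 1253 CPM in every pulse-chase group.

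The separation by library number ran through the module. The labels do not say what a number stands for, and the split into numbers 1 to 3 and 4 and above was made after its values were seen. The difference between the sets is therefore described and not tested. Fits within a set, or with the set as a term, remove spread that the split was chosen on. Their counts of calls are descriptive. The mean summed level of numbers 1 to 3 was 6.75 times that of numbers 4 to 6 in post-tamoxifen fl/fl cells and 6.24 times in labeled fl/fl cells. It was 3.77 times that of numbers 4 and 5 in labeled controls and 2.91 times in post-tamoxifen controls. The ratio was smallest in ex-Foxp3 cells, at 1.99 in fl/fl mice and 1.79 in controls. All 45 members were higher in each of numbers 1 to 3 than in each of numbers 4 to 6 in both labeled and post-tamoxifen fl/fl cells. The same held for 43 members in labeled controls, 32 in post-tamoxifen controls, 27 in ex-Foxp3 fl/fl cells and 14 in ex-Foxp3 controls. No member had the opposite order in any group. Depth overlapped between the sets, with 1451406 to 2278483 counts in labeled fl/fl libraries 1 to 3 and 1052731 to 2553989 in libraries 4 to 6. In labeled fl/fl cells the B and plasma cell marker sum was 17.6 to 30.7 CPM in numbers 1 to 3 and 19.0 to 27.0 CPM in numbers 4 to 6, with Ms4a1 and Ebf1 among those at 0 in all 6 (9 of 15 markers had counts). Myeloid markers summed to 46.5 to 58.2 CPM in numbers 1 to 3 and 36.1 to 45.8 CPM in numbers 4 to 6 (10 of 13 with counts), and NK markers to 26.9 to 55.1 and 10.2 to 22.9 CPM (3 of 9 with counts, Klrb1c and Tyrobp at 0). The B cell sums of the sets overlapped, those of the other 2 lists were higher in numbers 1 to 3, and their part in the separation was not tested.

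**Figure D2:**
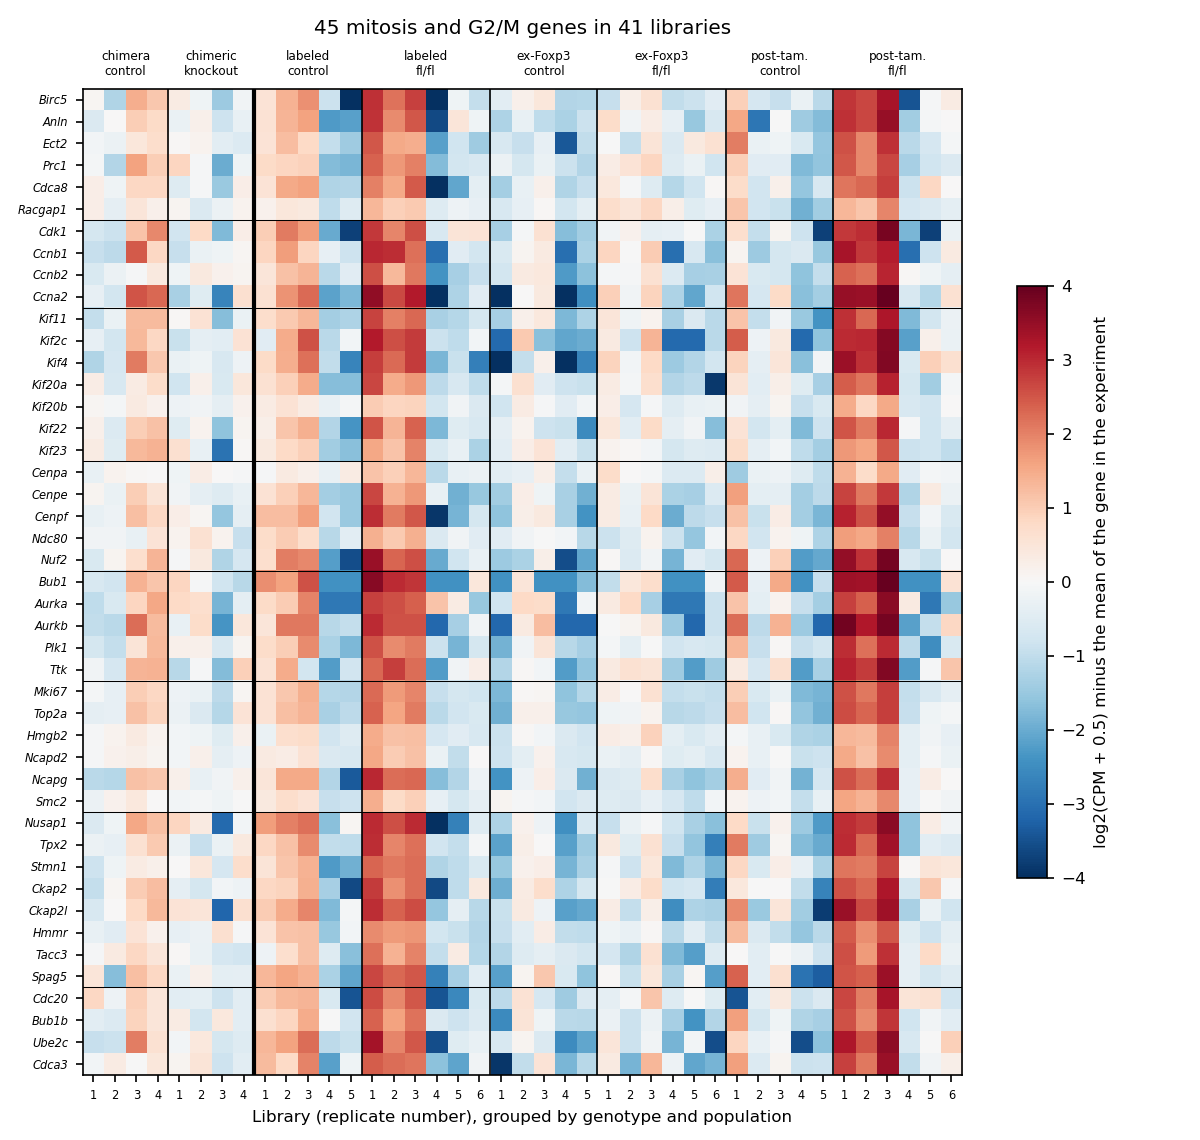
Level of each of the 45 members, as log2(CPM + 0.5) minus the mean of that member over the libraries of its experiment, with members in rows by role and libraries in columns by group and number. Libraries 1 to 3 of labeled and post-tamoxifen fl/fl mice are high for nearly every member, and numbers 4 and above are low in all pulse-chase groups.

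Expressed as edgeR's biological coefficient of variation, the median spread of the members was 0.907 in the pulse-chase experiment against 0.191 over all 9921 genes tested, and all 45 members lay above that median. It ran from 0.402 for Cenpa, the centromeric histone H3 variant, to 1.77 for the checkpoint kinase Bub1. In the chimera experiment the members' median was 0.346 against 0.137 over 9569 genes, with 34 of the 38 members tested above it. Hmgb2 was the steadiest there (0.114) and Aurkb the most variable (0.739). Since these are bulk libraries, fewer cells in division and less RNA per dividing cell cannot be told apart.

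Per base of annotated exon, Hmgb2, a chromatin protein also made outside mitosis, was the most abundant member in all 8 groups. The length used joins the exons of all annotated transcripts of a gene, so the order depends on the annotation. Its level was 34.9 ± 4.04 RPKM (SD, n = 4) in chimera controls, 83.2 ± 39.5 RPKM (n = 5) in labeled controls and 146 ± 100.3 RPKM (n = 6) in post-tamoxifen fl/fl cells. The proliferation antigen Mki67 was next in 7 of the 8 groups, at 17.2 ± 7.47, 48.5 ± 33.4 and 106 ± 96.5 RPKM in the same 3. In chimeric knockouts Mki67 (10.1 ± 3.001 RPKM) stood behind Hmgb2, Stmn1 (11.4 ± 4.33) and Smc2 (10.8 ± 0.416), but the last 2 and Mki67 do not differ beyond their spread. Stmn1, Top2a, Smc2 and Ncapd2 filled most of the following places. The kinases Ttk and Bub1, the cyclin Ccnb1 and the cytokinesis protein Anln were near the bottom, with group means of at most 4.28 RPKM. The order at the low end rests on few reads.

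Members were then followed by role. Among proteins of chromosome structure, Mki67 had 509.5, 724, 902, 155 and 152 CPM in labeled controls and 1650, 1108, 1312, 179.6, 208 and 195 CPM in labeled fl/fl cells. In post-tamoxifen cells it had 667, 224, 280.4, 98.8 and 93.2 CPM in controls and 1996, 1459, 2307, 173, 220 and 266 CPM in fl/fl mice. Both genotypes were high in numbers 1 to 3 and the ranges of the whole groups overlapped, but within each number set every post-tamoxifen fl/fl library lay above every control. Top2a, the topoisomerase that untangles sister chromatids, showed the same order, with 322, 78.0, 139.8, 45.5 and 36.1 CPM in post-tamoxifen controls and 829.7, 684, 926, 71.5, 122 and 130.3 CPM in fl/fl mice. The condensin subunits Smc2, Ncapd2 and Ncapg load onto chromosomes as they compact. Smc2, shared by both condensin complexes, had 89.7, 70.2, 75.7, 41.5 and 66.2 CPM in post-tamoxifen controls and 242, 212, 309, 65.0, 80.4 and 74.0 CPM in fl/fl mice, and ranged from 40.2 to 75.9 CPM in ex-Foxp3 fl/fl cells, where its libraries did not split by number.

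Cdk1 and its cyclins, which drive mitotic entry, were split by number in the same way. Cdk1 had 47.2, 25.5, 39.5, 3.78, 9.01 and 9.28 CPM in labeled fl/fl cells, and 46.5, 51.7, 92.1, 1.38, 0 and 5.01 CPM in post-tamoxifen fl/fl cells against 10.1, 2.92, 6.73, 3.25 and 0 CPM in the controls. Ccnb2, a B-type cyclin, had 63.8, 57.1, 103, 12.4, 10.6 and 9.25 CPM in post-tamoxifen fl/fl cells and 17.7, 7.80, 7.13, 3.61 and 5.94 CPM in controls. Its fl/fl libraries were above the controls within each number set, and library 4 onward overlapped the upper controls. Ccnb1 and Ccna2, the cyclins of mitotic entry and of S and G2 phase, reached 39.2 and 209 CPM in post-tamoxifen fl/fl cells and had no count in labeled fl/fl library 4.

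The checkpoint and anaphase-promoting complex genes followed. Cdc20, which activates that complex, had 34.5, 21.98, 53.6, 7.38, 7.95 and 2.70 CPM in post-tamoxifen fl/fl cells and 0, 3.58, 6.73, 2.52 and 3.20 CPM in controls. Ube2c, the enzyme that supplies it with ubiquitin, had 57.5, 22, 31.9, 0, 3.68 and 4.25 CPM in labeled fl/fl cells and 7.61, 2.71, 4.76, 1.11, 4.92 and 0 CPM in ex-Foxp3 fl/fl cells. The checkpoint protein Bub1b had 126, 80.2, 157, 12.0, 19.4 and 15.8 CPM in post-tamoxifen fl/fl cells against 18.2, 11.6, 18.1, 8.15, 3.69 and 9.20 CPM in ex-Foxp3 fl/fl cells. For Bub1b the ex-Foxp3 libraries lay below the post-tamoxifen ones within both number sets, although ex-Foxp3 libraries 1 and 3 reached into the range of post-tamoxifen libraries 4 to 6. Among mitotic kinases, Plk1, which acts at centrosomes and kinetochores, had 59.8, 35.1, 61.0, 3.23, 0.883 and 4.63 CPM in post-tamoxifen fl/fl cells and 18.9, 3.58, 7.53, 3.61 and 4.11 CPM in controls. Ttk, the kinase at the top of the checkpoint, had 19.3, 15.8, 29.8, 0, 1.77 and 4.63 CPM in post-tamoxifen fl/fl cells and 2.53, 0.975, 3.17, 0 and 0.457 CPM in controls, so its fold change rests on few reads.

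Kinetochore, passenger and spindle genes differed in how far they spread. Cenpa, with the smallest spread, had 8.85, 20.1, 21.0, 17.0 and 11.9 CPM in post-tamoxifen controls and 65.1, 40.5, 70.0, 17.5, 23.0 and 22.8 CPM in fl/fl mice. Every fl/fl library but library 4 was above every control, libraries 5 and 6 by less than 3 CPM. Cenpf, a large kinetochore protein, reached 407 CPM in post-tamoxifen fl/fl library 3 and was at 1.89 CPM in labeled fl/fl library 4. Birc5 (survivin), a member of the chromosomal passenger complex, had 75.7, 66.7, 105, 0.461, 9.72 and 12.7 CPM in post-tamoxifen fl/fl cells and 20.2, 6.17, 5.15, 8.30 and 4.57 CPM in controls, and library 4 of the fl/fl mice was below all controls. Among motors, Kif11, which pushes the spindle poles apart, had 271, 175, 335, 10.1, 21.2 and 30.1 CPM in post-tamoxifen fl/fl cells, while Kif20b, a motor of late cytokinesis, ranged only from 27.4 to 138 CPM there. Stmn1, a microtubule destabiliser, had 158, 136, 149, 13.2, 15.2 and 20.1 CPM in labeled, 30, 17.4, 42.8, 8.89, 13.1 and 8.43 CPM in ex-Foxp3 and 138, 134, 205, 32.3, 45.05 and 43.2 CPM in post-tamoxifen fl/fl cells. Its ex-Foxp3 level stayed below that of both other populations within each number set. Tacc3, which stabilises spindle fibres, had 9.29, 6.204, 23.3, 4.07, 2.87 and 10.3 CPM in ex-Foxp3 and 91.0, 49.8, 116, 11.5, 26.5 and 12.3 CPM in post-tamoxifen fl/fl cells, where ex-Foxp3 library 3 alone reached into the range of post-tamoxifen libraries 4 to 6.

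**Figure D3:**
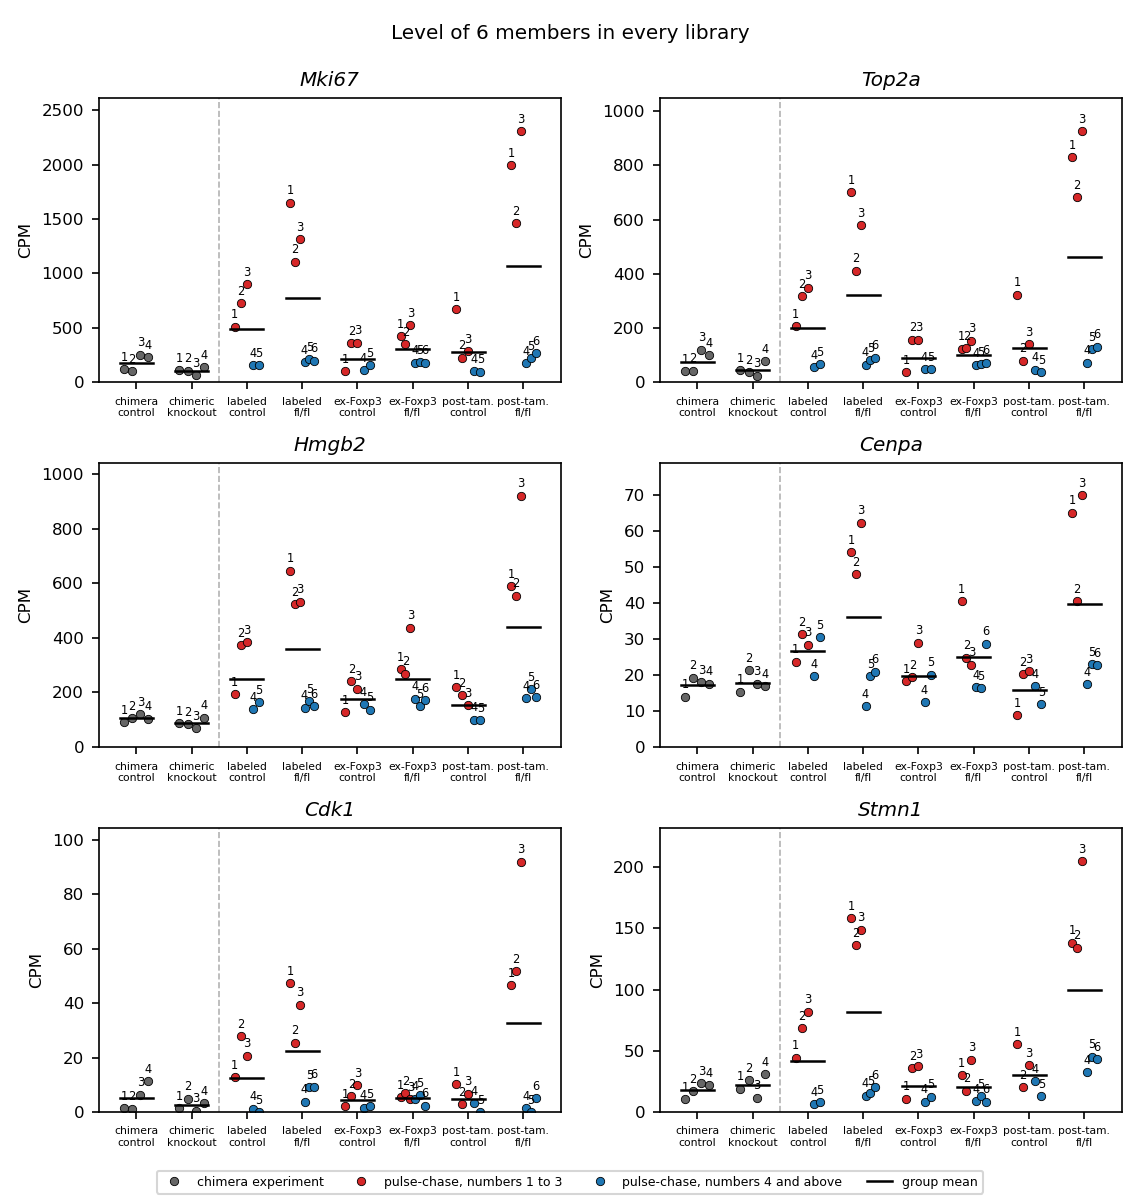
CPM (linear axis from 0) of Mki67, Top2a, Hmgb2, Cenpa, Cdk1 and Stmn1 in every library, by group, with numbers 1 to 3 in red, 4 and above in blue, the chimera libraries in grey and a line for each group mean. Cdk1 spans 0 to 92.1 CPM within post-tamoxifen fl/fl cells, while Cenpa spans 17.5 to 70.0 CPM.

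Loss of Uhrf1 in chimeras was compared with control Treg cells first. The module was lower on average in chimeric knockouts, but no member passed the test: edgeR called 0 of the 38 members tested at an adjusted p under 0.05, where 2.41% of 9569 genes were called (4 members at an unadjusted p under 0.05, all lower, and 0 called by DESeq2). Ccnb1, Ccna2, Bub1, Aurka, Kif2c, Ttk and Ube2c were too low to be tested. The median log2 fold change of the members was -0.65 against 0.00 over all genes, with 33 of 38 below 0, and the summed level differed by -0.45 on the log2 scale, with a pooled SD of 0.41. edgeR also called 0 without the library labelled chimeric knockout 4 (7 at an unadjusted p under 0.05). The smallest p belonged to the kinetochore motor Cenpe (-0.73 ± 0.25, edgeR adjusted p = 0.123) and to Tacc3 (-0.82 ± 0.28, edgeR adjusted p = 0.129). Mki67 was at 118, 100.2, 249.7 and 225 CPM in controls and 109.8, 104, 60.5 and 133 CPM in knockouts (-0.74 ± 0.39, edgeR adjusted p = 0.512). Hmgb2, at 90.4 to 120 CPM in controls and 67.6 to 108 in knockouts, gave -0.27 ± 0.12 (edgeR adjusted p = 0.317).

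The difference in chimeras rested on controls 3 and 4, the libraries with the raised B cell markers. B and plasma cell markers summed to 13.9 to 126 CPM in controls (14 of 15 with counts, Tnfrsf17 at 0) and 11.5 to 21.6 CPM in knockouts (13 of 15, Tnfrsf17 among those at 0). Their part in the result was not tested. Without those 2 controls the median of 39 members tested was 0.08, and edgeR again called 0 (2 at an unadjusted p under 0.05; DESeq2 was not run on this subset). In that fit Top2a stood at 0.14, Cdk1 at 0.97, Plk1 at 1.03 and Birc5 at 0.28, where the fit of all 8 libraries gave -0.70, -0.89, -0.27 and -0.88. Groups did not overlap for 1 of the 38 members, Cdc20, a smaller share than the 4.68% of all genes that were lower without overlap. It had 6.40, 2.82, 6.93 and 4.85 CPM in controls and 2.39, 2.44, 1.68 and 2.38 CPM in knockouts (-1.19 ± 0.50, edgeR adjusted p = 0.267). Cdc20 overlaps Elovl1 on the opposite strand, and reads in that overlap cannot be told apart.

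In labeled Treg cells every member was higher in fl/fl mice than in controls on average, yet none passed. edgeR called 0 of 45 members, with 0 at an unadjusted p under 0.05 and 0 called by DESeq2, and 0.0101% of 9921 genes were called. The median log2 fold change was 0.74 against 0.00 over all genes. Mki67 gave 0.66 ± 0.73 (edgeR adjusted p = 0.843), Top2a 0.68 ± 0.72, Cdk1 0.78 ± 0.86, Hmgb2 0.52 ± 0.46 and Stmn1 0.94 ± 0.69. Both genotypes held high and low libraries, and the standard errors were about as large as the differences. Within numbers 1 to 3 the fl/fl libraries lay above all controls for 39 members (9.71% of all genes did), and edgeR called 2 members there, the midzone protein Prc1 (1.2 ± 0.26, edgeR adjusted p = 0.0416) and Ccnb1 (1.63 ± 0.38, edgeR adjusted p = 0.0416), with 0.353% of genes called higher. Within numbers 4 and above the fl/fl libraries lay above the controls for 11 members (10% of all genes), and edgeR called 0 of the 40 members tested (6 at an unadjusted p under 0.05, and 0.0101% of genes called higher). Ccnb2 changed sign there, to -0.59. The 10 members above in both sets (1.77% of all genes) were Aurka, Kif20a, Kif23, Mki67, Nuf2, Prc1, Racgap1, Smc2, Stmn1 and Tpx2.

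In ex-Foxp3 cells the genotypes differed little on average. edgeR called 0 of 45 members (0 at an unadjusted p under 0.05, 0 by DESeq2), where 0.181% of genes were called. The median log2 fold change was 0.26, with 33 members above 0 and 12 below, and no number set gave a call (4 of 45 and 5 of 40 members at an unadjusted p under 0.05, with 0.838% and 0% of genes called higher). Of the 45 members 1, Prc1, was higher in every fl/fl library within both number sets, about the share over all genes (2.2%). It had 25.2, 18.1, 24.3, 16.1 and 12.8 CPM in controls and 35.9, 43.0, 53.8, 20.4, 24.2 and 16.9 CPM in fl/fl mice.

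Post-tamoxifen Treg cells of fl/fl mice had the highest module level on average. All 45 members were higher than in controls on average, with a median log2 fold change of 2.09 against 0.01 over all genes, and 4 passed the test, where 3.9% of 9921 genes were called higher. These were Cenpa (1.28 ± 0.38, edgeR adjusted p = 0.038), Hmgb2 (1.56 ± 0.48, edgeR adjusted p = 0.0466), Tacc3 (2.07 ± 0.64, edgeR adjusted p = 0.0475) and Ttk (3.17 ± 1.003, edgeR adjusted p = 0.0482). At the level of libraries, Hmgb2 (mm10, chromosome 8, 57511843 to 57515999) had 219.9, 190.4, 153, 100.3 and 96.8 CPM in controls and 589, 555, 921, 178, 211 and 184 CPM in fl/fl mice, and Tacc3 (chromosome 5, 33658128 to 33678995) had 15.2, 11.1, 14.7, 12.6 and 8.22 CPM in controls. Of the fl/fl mice, libraries 4 to 6 lay in the range of the controls for Hmgb2, as did libraries 4 and 6 for Tacc3, and no member separated the whole groups (1.41% of all genes did so in this direction). Members with larger or similar fold changes missed the threshold, among them Ccnb2 (2.52 ± 0.80, edgeR adjusted p = 0.0534), Cdk1 (3.03 ± 0.997, edgeR adjusted p = 0.0596), Birc5 (2.55 ± 0.93, edgeR adjusted p = 0.0876), Mki67 (2.04 ± 0.77, edgeR adjusted p = 0.1), Top2a (2.02 ± 0.77, edgeR adjusted p = 0.102), Stmn1 (1.82 ± 0.73, edgeR adjusted p = 0.118) and Plk1 (2.08 ± 0.87, edgeR adjusted p = 0.139). DESeq2 called 17 members, all higher, where it called 9.52% of genes in either direction (591 higher and 384 lower). In edgeR 41 of 45 had an unadjusted p under 0.05. The count depended on single libraries: it was 0 without control 3, 4 or 5 or without fl/fl library 1, 2 or 3, 2 without control 2 (Cenpa and Hmgb2), and 23, 12 and 19 without fl/fl library 4, 5 or 6. Without control 1, the library of lowest depth with raised B cell and myeloid markers, the count was again 4, but of the members called with it only Hmgb2 (1.70, edgeR adjusted p = 0.0493) was called. The others were Anln, Hmmr and Racgap1, while Cenpa (edgeR adjusted p = 0.0708), Tacc3 (edgeR adjusted p = 0.0629) and Ttk (edgeR adjusted p = 0.0608) missed the threshold.

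Within the number sets the post-tamoxifen difference was larger than its spread for most members in numbers 1 to 3 and for few in numbers 4 and above. In numbers 1 to 3 alone edgeR called 42 of 45 members higher, where 7.44% of genes were called higher, with a median log2 fold change of 2.46, and Cdca3, Spag5 and Kif2c were not called. Smc2 rose by 1.72 ± 0.17, Nusap1, a spindle-bundling protein, by 3.25 ± 0.35, Cdk1 by 3.48 ± 0.44 and Ccnb1 by 4.19 ± 0.49. In numbers 4 and above, 4 of 40 members were called higher, where 1.5% of genes were, with a median of 1.01. They were Mki67 (1.21 ± 0.16, edgeR adjusted p = 1.4e-06), Top2a (1.398 ± 0.21, edgeR adjusted p = 3.64e-05), Hmgb2 (0.95 ± 0.15, edgeR adjusted p = 3.9e-05) and Racgap1, a regulator of cytokinesis (1.16 ± 0.29, edgeR adjusted p = 0.0186). With the number set as a term in the fit of all libraries, 44 of 45 were called higher (8.21% of genes), all but Ect2. The split was chosen on the members' own levels, so the larger counts of these fits are not independent support. The fl/fl libraries lay above all controls for 44 members in numbers 1 to 3 (14.9% of all genes), for 22 in numbers 4 and above (15.6%) and for 22 in both (4.82%).

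Within numbers 1 to 3, B and plasma cell markers were higher in fl/fl mice than in controls, and myeloid markers overlapped between the genotypes. B and plasma cell markers summed to 212 to 646 CPM in post-tamoxifen fl/fl libraries 1 to 3 and 16.2 to 31.9 CPM in libraries 4 to 6 (14 of 15 with counts, Vpreb3 at 0), and to 16.2 to 129 CPM in controls (13 of 15, Vpreb3 and Tnfrsf17 at 0). Controls 1 to 3 held 129, 17.4 and 16.2 CPM of these. Myeloid markers summed to 228 to 623 CPM in fl/fl libraries 1 to 3 and 76.9 to 154 CPM in libraries 4 to 6 (13 of 13 with counts), against 39.0 to 453 CPM in controls (10 of 13, with S100a8, S100a9 and Clec9a at 0). Controls 1 to 3 held 453, 39.0 and 197.5 CPM of these, so control 1 lay above fl/fl libraries 1 (361 CPM) and 2 (228 CPM). Their part in the result was not tested in either number set. In numbers 4 and above, where Mki67, Top2a, Hmgb2 and Racgap1 were called, B cell marker sums were 16.2 to 31.9 CPM in fl/fl mice against 17.2 and 53.6 in controls, and myeloid sums were lower in fl/fl mice than in the controls (199 and 267 CPM).

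**Figure D4:**
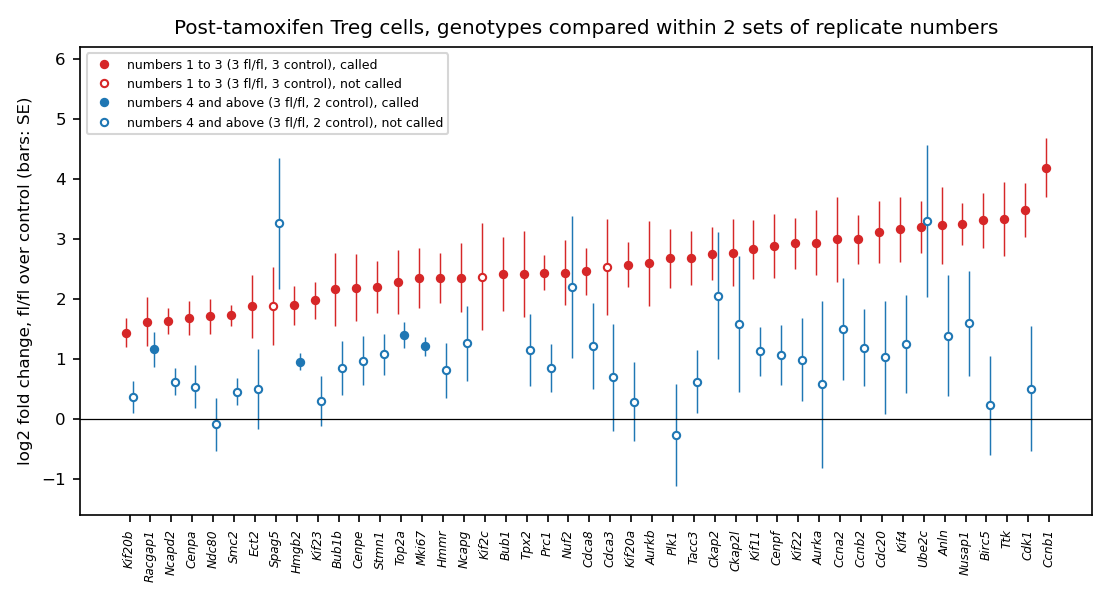
Log2 fold change of each member between post-tamoxifen fl/fl and control cells, fitted in libraries numbered 1 to 3 and in libraries numbered 4 and above, with members ordered by the first of these and bars for the SE. All 45 members lie above 0 in numbers 1 to 3, and 38 of the 40 tested do in numbers 4 and above.

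The sorted populations were then compared within each genotype. In controls, all 45 members were lower in ex-Foxp3 than in labeled cells, with a median of -1.26, but edgeR called 0 (4 at an unadjusted p under 0.05, 0 by DESeq2), where 0.353% of genes were called. Same-numbered libraries of these groups deviated together, and a fit with the library number as a block called 2 members lower, the motor Kif4 (-2.53) and Ube2c (-2.17), with 1.27% of genes called lower. In fl/fl mice the median was -1.83, again with all 45 members lower, and edgeR called 0 (32 at an unadjusted p under 0.05), where 4.09% of genes were called. DESeq2 called 4 lower there (Bub1b, Nusap1, Stmn1 and Tacc3), where it called 5.25% of genes in either direction (238 higher and 330 lower). The fit blocked by number called 20 members lower (4.87% of genes). In numbers 1 to 3 alone 36 members were called lower (3.48% of genes), and in numbers 4 and above 0 of 40 were (5 at an unadjusted p under 0.05, and 0.987% of genes called lower), with a median of -0.03 and Ccnb2, Plk1, Birc5 and Hmgb2 above 0. Mki67 gave -1.35 ± 0.70 (edgeR adjusted p = 0.315), and Stmn1, at 136 to 158 CPM in labeled fl/fl libraries 1 to 3 against 17.4 to 42.8 in ex-Foxp3 ones, gave -2.05 ± 0.69 (edgeR adjusted p = 0.0916).

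Post-tamoxifen and labeled cells were compared next. In controls the members lay lower in post-tamoxifen cells (median -0.86, 45 of 45 below 0), and in fl/fl mice higher (median 0.49, 45 of 45 above 0). edgeR called 0 of 45 in each (0 at an unadjusted p under 0.05 and 0 by DESeq2 in each), where 7.93% and 4.58% of genes were called. With the number set as a term, 1 member was called lower in controls, Ube2c (5.18% of genes called lower). In fl/fl mice, where same-numbered libraries deviated together, a block by number also called 0 members, with 4.32% of genes called higher. In numbers 4 and above, 1 of 40 members was called higher in post-tamoxifen cells of each genotype, Stmn1 in both cases. It gave 1.47 in controls (edgeR adjusted p = 0.028) and 1.27 in fl/fl mice (edgeR adjusted p = 0.00516). Mki67 (-0.68) and Hmgb2 (-0.60) were called lower in controls. These counts are near the shares over all genes. In that set 3.37% of genes were called higher and 4.42% lower in controls, and 3.78% higher in fl/fl mice.

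Ex-Foxp3 and post-tamoxifen cells of controls were close, with a median of -0.29, 32 of 45 members below 0 and 0 called by edgeR (0 at an unadjusted p under 0.05, 0 by DESeq2, 5.33% of genes called). In fl/fl mice this comparison gave the most calls. edgeR called 27 of 45 members, all lower in ex-Foxp3 cells, where 9.39% of genes were called lower, with a median log2 fold change of -2.34. DESeq2 called 34, all lower, where it called 14.5% of genes in either direction (548 higher and 1103 lower). The block by number, whose libraries deviated together, called 41 (11.9% of genes called lower). The smallest p belonged to Tacc3 (-2.47 ± 0.61, edgeR adjusted p = 0.0063), Smc2 (-1.52 ± 0.39, edgeR adjusted p = 0.00912), Bub1b (-2.59 ± 0.71, edgeR adjusted p = 0.0139), Nusap1 (-3.13 ± 0.91, edgeR adjusted p = 0.0196), Ube2c (-3.08 ± 0.90, edgeR adjusted p = 0.0212) and Stmn1 (-2.34 ± 0.69, edgeR adjusted p = 0.0215). By role, calls were made for 7 of 8 spindle and microtubule genes, 4 of 5 mitotic kinases, 4 of 6 genes of chromosome structure, 3 of 4 of the cyclin and Cdk1 group, 3 of 5 kinetochore genes, 2 of 4 checkpoint and anaphase-promoting complex genes, 2 of 6 passenger and midzone genes and 2 of 7 motors. Mki67 (-1.82 ± 0.71, edgeR adjusted p = 0.0828) and Hmgb2 (-0.83 ± 0.44, edgeR adjusted p = 0.212), the most abundant members, were not called. Racgap1 differed least, at -0.52 ± 0.45.

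That difference also lay mostly in numbers 1 to 3, where 43 members were called lower in ex-Foxp3 cells (7.54% of genes) and 44 separated the groups (15.8%). In numbers 4 and above 3 of 40 were called lower, which is near the share over all genes (7.13%). They were Stmn1 (-1.98 ± 0.32), Tacc3 (-1.47 ± 0.49, edgeR adjusted p = 0.0388) and Top2a (-0.69 ± 0.18, edgeR adjusted p = 0.00559). There the median was -0.58, and Cdk1 (0.82) and Plk1 (0.42) lay above 0. The count of 27 fell to 3 without post-tamoxifen library 3, 7 without library 1 and 8 without library 2. It was 14, 9, 5, 9 and 6 without ex-Foxp3 library 1, 2, 4, 5 or 6. The B and myeloid marker sums given above for post-tamoxifen libraries 1 to 3 stand beside this result too: in ex-Foxp3 fl/fl cells they were 15.8 to 44.5 CPM (11 of 15 with counts; Blk, Fcrla, Vpreb3 and Tnfrsf17 at 0) and 29.0 to 48.2 CPM (10 of 13; S100a8, S100a9 and Clec9a at 0), and their part was not tested. These comparisons share groups with each other, so they are not independent.

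**Figure D5:**
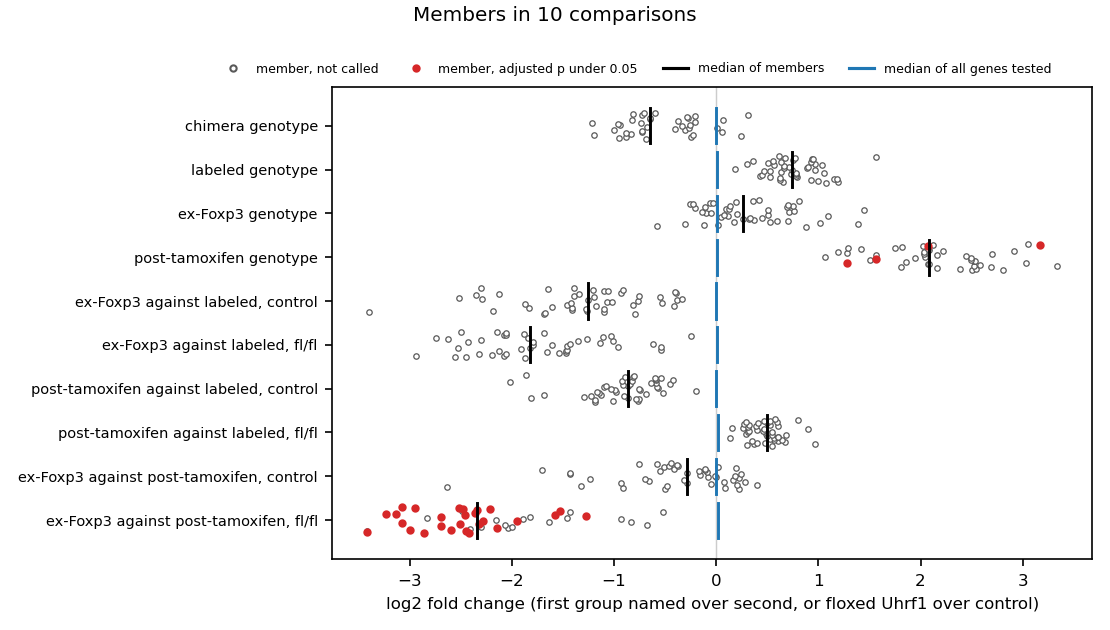
Log2 fold change of every member tested in each of the 10 comparisons, 1 point per member, with called members in red and the medians of the members and of all genes drawn. The members lie at a median of 2.09 between genotypes in post-tamoxifen cells and -2.34 between ex-Foxp3 and post-tamoxifen fl/fl cells.

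Whether the genotype difference itself changed with the population was tested by interaction terms. For post-tamoxifen against labeled cells, the difference between genotypes was larger by a median of 1.36 on the log2 scale, in 45 of 45 members, but edgeR called 0 (0 at an unadjusted p under 0.05, 0 by DESeq2), where 0.0202% of genes were called. For ex-Foxp3 against labeled cells the median was -0.45, with 40 of 45 members below 0 and 0 called (0 at an unadjusted p under 0.05, 0 by DESeq2, 0% of genes called). A genotype effect that differs between populations was therefore not shown for any member.

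The members followed each other closely from library to library. With each group's mean removed, the 38 members tested in both experiments gave 703 pairs over the 41 libraries, with a median Pearson r of 0.83 (0.48 to 0.99), all of them above 0. These correlations describe libraries that share the separation by number and their depth. Mki67 followed the mean of the other members most closely (r = 0.98), then Top2a (0.97) and Kif11 (0.97), and Cenpa (0.72) and Cdc20 (0.73) least. Among 8348 other genes tested in both experiments and whose mean log2 CPM reached 3, the 10 most like the members were the linker histones Hist1h1b (0.97), Hist1h1a (0.96) and Hist1h1d (0.95), the core histone genes Hist1h2ak (0.95) and H2afx (0.95), the spindle genes Aspm (0.96), Kif15 (0.96) and Dlgap5 (0.95), the lamin Lmnb1 (0.95) and the replication checkpoint gene Clspn (0.95). The median over all 8348 was -0.04.

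Further genes of cell division were read from 3 lists. Between genotypes in post-tamoxifen cells, 387 of all 9921 genes were called higher and 330 lower. Of 91 other mitosis genes tested in the pulse-chase experiment, 10 were called in that comparison, 9 higher and 1 lower, with a median of 1.504. They included the checkpoint ATPase Trip13 (3.44 ± 0.84, edgeR adjusted p = 0.00899), the kinase Melk (2.62 ± 0.68, edgeR adjusted p = 0.017) and Ube2s, which works with Ube2c (0.82 ± 0.22, edgeR adjusted p = 0.0203). The gene that fell was Smc4, the condensin partner of Smc2 (-0.52 ± 0.11, edgeR adjusted p = 0.00448), while Smc2 itself stood at 1.29 ± 0.42 (edgeR adjusted p = 0.0576). Smc4 also fell in ex-Foxp3 cells of fl/fl mice (-0.69 ± 0.11, edgeR adjusted p = 0.00137), and was lower in ex-Foxp3 than in post-tamoxifen cells of both fl/fl mice (-0.62 ± 0.11, edgeR adjusted p = 0.000143) and controls (-0.45 ± 0.12, edgeR adjusted p = 0.0156). Of 58 genes of DNA replication and S phase, 5 were called higher in post-tamoxifen fl/fl cells than in controls, where 3.9% of all genes were. Among them were Cdca7, Slbp, Mcm6 and Pold1, and the median over the list was 0.90. Of 21 cell cycle inhibitors and quiescence genes 2 were called lower, Foxo3 and Foxo1, where 330 of 9921 genes were. Between ex-Foxp3 and post-tamoxifen fl/fl cells, 932 of all 9921 genes were called lower and 575 higher. Of the 91 mitosis genes 41 were called there (39 lower, median -1.84), and 33 of 58 S phase genes were called lower (median -0.98). Of the 21 inhibitors 3 were called higher, Cdkn1b, Btg2 and Rbl2. In chimeras, 0 of 66 mitosis and 0 of 57 S phase genes were called by edgeR (8 and 4 at an unadjusted p under 0.05, 0 and 0 by DESeq2), where 2.41% of all genes were called. Of 21 inhibitors 3 were called higher in knockouts, where 82 of 9569 genes were. They were Rb1 (0.45 ± 0.09, edgeR adjusted p = 0.00327), Tob1 and Klf2.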

How the data were processed

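Gene expression was measured by RNA-seq in 41 libraries of sorted mouse T cells. Per the labels' protocols, RNA came from AllPrep Micro extractions and libraries from a stranded total RNA kit. Per the submitters' processing notes, bcl2fastq 2.17.1.14 made the read files and TopHat2 2.1.0 mapped them to the mm10 genome. The counting program, its strand setting and the annotation are not given in the sources used here. The authors deposited whole-number counts per gene (19434 genes), with no normalization. Genes were taken by symbol: 5 of the 45 members (Ccna2, Cdc20, Ckap2l, Kif4 and Nusap1) carry the identifier of a neighbouring gene, and the listed positions are those of the named gene for all 45. Strand setting matters for the 12 members that overlap a gene on the opposite strand.

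Groups and library numbers came from the labels. The labels do not tie numbers to animals, so p-values measure the spread between libraries, which may be technical. Within each group, all pairs of libraries differed by more than the sampling noise (the closest pair had a chi-square per degree of freedom of 2.57). Counts were tested with edgeR 4.0.16 in R 4.3.3 (quasi-likelihood test, TMM scaling, filterByExpr by group, Benjamini-Hochberg adjustment over all genes tested, threshold 0.05). The 8 chimera libraries were fitted together (9569 genes), as were the 33 pulse-chase libraries (9921 genes), so the groups of an experiment share 1 estimate of the spread. Standard errors are the size of the log2 fold change divided by the square root of F. Levels are CPM of the TMM-scaled library, or RPKM where genes are compared. For RPKM the length is the union of all GENCODE exons of the gene, which can exceed the length of any single transcript. Marker sums are scaled to the total count (CPM), and log2 levels add 0.5 CPM. At 781437 to 5709702 counts per library, 3 counts, the limit that a count of 0 allows, are 0.525 to 3.84 CPM. The tests were checked on simulated counts.

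Same-numbered libraries were taken as paired where each pair's deviations from the group means correlated above 0.1 over genes. This held for ex-Foxp3 against labeled cells in controls (0.122 to 0.299) and likewise in fl/fl mice (0.142 to 0.353). It also held in fl/fl mice for post-tamoxifen against labeled cells (0.221 to 0.427) and ex-Foxp3 against post-tamoxifen cells (0.134 to 0.385). The pulse-chase groups share the separation by number, which can itself make same-numbered libraries deviate together. The rule therefore cannot tell pairing from that separation, and counts from the block by number are descriptive. Alternatives were DESeq2 1.42.0, its size factors in edgeR, other count filters, a block by number, fits of only the groups compared, and fits that left out each library in turn. The members and gene lists were chosen with earlier results of these data known. The split by number set was chosen after the values were seen, so calls from fits that use it are descriptive.

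By rule, fold changes were printed for the called members of a comparison with the smallest p (up to 6 a direction) and for Mki67, Top2a, Cdk1, Ccnb2, Plk1, Birc5, Hmgb2 and Stmn1, and outside the members for up to 4 called mitosis genes a comparison and the 10 genes most like the members. The text prints part of these. Genes printed beyond the rule were chosen after their values were seen: Cenpe, Tacc3 and Cdc20 in chimeras, the members named within a number set, a block or a fit without 1 library, Smc2 beside Smc4, Racgap1 in the comparison of ex-Foxp3 with post-tamoxifen cells, and the genes of the S phase and inhibitor lists. Some genes of these lists are not reported here.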

Additional observations from a re-analysis of the deposited data

Results flagged for a closer look

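The summed level and the levels of the 8 members named for every comparison were examined for a library far from the others of its group. Of 72 such tests, 2 gave a gap to the nearest library, divided by the range of the group, above Dixon's 95% critical value. Chance gives about 1 in 20. Both concerned post-tamoxifen control library 1. Plk1, the centrosome and kinetochore kinase, was at 18.95 CPM there, and the next library was at 7.526 CPM (gap over range 0.743). Birc5, of the chromosomal passenger complex, was at 20.22 CPM, with the next library at 8.297 CPM (gap over range 0.762). This library had the lowest total of the series, 781437 counts, with B and plasma cell markers summing to 129 CPM and myeloid markers to 453 CPM. Their part in the 2 values was not tested.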

How the results depend on the processing

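Counts of called members moved with the setting in several comparisons. For genotype in post-tamoxifen cells (4 called), DESeq2 called 17, a fit without a count filter 0, only the groups compared 0, a replicate block 42 (these numbers do not pair the genotypes), number set as a term 44, and numbers 1 to 3 alone 42. Over all genes, DESeq2 called 9.52%, no count filter 543 of 15161 and only the groups compared 147 of 9337. The replicate block called 1650 of 9921, number set as a term 1420 of 9921 and numbers 1 to 3 alone 1325 of 9910. Leaving out 1 library gave 0 to 23. For ex-Foxp3 against labeled fl/fl cells (0 called), DESeq2 called 4, only the groups compared 1 (Cdk1), the replicate block 20, number set as a term 22, numbers 1 to 3 alone 36, and leaving out 1 library 0 to 2. Over all genes, DESeq2 called 5.25%, only the groups compared 437 of 9148 and the replicate block 893 of 9921. Number set as a term called 705 of 9921 and numbers 1 to 3 alone 521 of 9910. For ex-Foxp3 against post-tamoxifen fl/fl cells (27 called), no count filter gave 12, a filter of 10 counts in every library of a group 16 (of 27 tested), only the groups compared 9, the replicate block 41, number set as a term 41, numbers 1 to 3 alone 43, numbers 4 and above alone 3, and leaving out 1 library 3 to 37. Over all genes, no count filter called 1397 of 15161, the filter of 10 counts 1246 of 8819 and only the groups compared 1046 of 9212. The replicate block called 2063 and number set as a term 1840 of 9921. Numbers 1 to 3 alone called 1092 of 9910 and numbers 4 and above alone 1234 of 9934. The replicate block gave 2 calls (Kif4 and Ube2c) for ex-Foxp3 against labeled controls. It gave 4 (Ccnb1, Ccnb2, Cenpa and Ube2c) for post-tamoxifen against labeled controls, where the rule for pairing was not met. It changed no other count by over 1.5 times. Over all genes it called 211 of 9921 for ex-Foxp3 against labeled controls and 1280 of 9921 for post-tamoxifen against labeled controls. Without a count filter chimeras gave 1 (Ccna2, -2.23, edgeR adjusted p = 0.0101), where 396 of 15530 genes were called. Numbers 1 to 3 alone gave 2 for ex-Foxp3 against labeled controls (Nusap1 and Ube2c), 4 for post-tamoxifen against labeled controls (Ccnb1, Cdk1, Nusap1 and Ube2c) and 2 for genotype in labeled cells (Ccnb1 and Prc1). Over all genes that set called 35, 125 and 71 of 9910 in the same order. Number set as a term gave 1 for post-tamoxifen against labeled controls (Ube2c), where 1028 of 9921 genes were called. Numbers 4 and above alone gave 3 for post-tamoxifen against labeled controls (Hmgb2, Mki67 and Stmn1), 1 for the same in fl/fl mice (Stmn1) and 2 for ex-Foxp3 against post-tamoxifen controls (Hmgb2 and Racgap1), each of 40 tested. Over all genes that set called 774, 774 and 694 of 9934 in the same order, so the members' shares were not above those of all genes. Leaving out 1 library gave 0 calls throughout in every other test. The causes were not tested, apart from fewer samples or genes where the setting has them.

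Of 921 refitted fold changes of members, 754 kept direction and side of the threshold, 99 lost the call, 55 gained one and 13 changed sign. In chimeras without controls 3 and 4 the signs that turned were those of Top2a (0.14), Cdk1 (0.97), Plk1 (1.03) and Birc5 (0.28), and Plk1 ran from -0.58 to 0.38 as 1 library was left out (0.38 without control 4). In numbers 4 and above alone they were Ccnb2 between genotypes in labeled cells (-0.59), Plk1 between genotypes in post-tamoxifen cells (-0.27), Ccnb2 (0.35), Plk1 (0.42), Birc5 (0.14) and Hmgb2 (0.11) for ex-Foxp3 against labeled fl/fl cells, and Cdk1 (0.82) and Plk1 (0.42) for ex-Foxp3 against post-tamoxifen fl/fl cells. The summed module level moved by less than 1 SD in all 20 recomputed values. Where the rule for pairing was not met, same-numbered libraries correlated best with each other in 0 of 4 numbers in chimeras. Between genotypes they did in 2 of 5 in labeled, 1 of 5 in ex-Foxp3 and 2 of 5 in post-tamoxifen cells. In controls they did in 1 of 5 for post-tamoxifen against labeled and 3 of 5 for ex-Foxp3 against post-tamoxifen cells. Where the rule was met, they did in 3 of 5 for ex-Foxp3 against labeled controls. In fl/fl mice they did in 5 of 6 for ex-Foxp3 against labeled cells. Post-tamoxifen against labeled and ex-Foxp3 against post-tamoxifen fl/fl cells each gave 4 of 6. Depth limits members such as Ttk, Cdk1 and Cdc20, which had no count in some libraries.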
